A study of Homo sapiens with 8 samples.

Results

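The E2F family of transcription factors and their DP partners were followed in 92.1, an established human uveal melanoma cell line that carries an activating GNAQ mutation, after MEK and histone deacetylase inhibition. The genes were chosen by symbol: E2F1 to E2F8 and the partner genes TFDP1 and TFDP2, 10 of the 18406 genes listed. All 10 passed the filter on low values, a mean normalised value of at least 10 over the 8 libraries, as did 13320 genes in all. Cells were kept for 24 h with 10 nM trametinib, an inhibitor of MEK1 and MEK2, with 10 nM panobinostat, an inhibitor of histone deacetylases, with trametinib and panobinostat together (the combination), or with DMSO as vehicle. Each of the 4 groups has 2 RNA-seq libraries, prepared with a NuGEN Ovation kit designed for fixed tissue. For panobinostat the treatment label gives the drug's name beside the words MEK inhibitor, and the name was taken as correct. The combination label gives 10 nM once for both drugs. All libraries come from a single cell line, and no source says that the 2 libraries of a group are separate cultures, so p-values here reflect library-to-library spread that could be technical.

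E2F proteins bind DNA through a conserved domain and control genes needed for DNA replication and entry into S phase. In resting cells the pocket proteins RB, p107 and p130 hold E2F complexes in a repressive state, and cyclin-dependent kinases phosphorylate the pocket proteins to release them. E2F1 to E2F6 bind DNA as dimers with a DP protein, whereas the atypical E2F7 and E2F8 carry a second DNA-binding domain and need no DP partner. Several E2F genes are themselves E2F targets, so the family feeds back on its own transcription, and MEK and ERK signalling reaches it upstream through cyclin D expression.

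The deposited values are counts divided by a factor for each library, and whole reads could be recovered from them. The libraries held 6897784 to 16861001 recovered reads, and 1 read was worth 0.602 to 1.52 in normalised units. The trametinib libraries stood apart in their low values: 3743 and 5362 genes were listed at 0, against 2222 and 2690 in the vehicle libraries and 2601 to 2890 in the other libraries. Of the 1472 genes with 10 to 30 reads in trametinib replicate 1, 42.3% were at 0 in trametinib replicate 2, compared with 1.79% for the panobinostat pair, 2.89% for the combination pair and 0.367% for the vehicle pair. A 0 in trametinib replicate 2 is therefore given below as listed, and results that rest on it are also given without that library. All 8 melanocyte markers checked were in the table, and their summed value was 210931 to 222904 in trametinib libraries, 123525 to 127580 in panobinostat libraries, 184239 to 186236 in combination libraries and 117998 to 125588 in vehicle libraries. Within that sum markers moved both ways under panobinostat and under the combination. In panobinostat libraries PMEL was 28666 and 30566 against 37252 and 36220 in vehicle libraries, and GPNMB 23587 and 23839 against 14109 and 14440. In combination libraries MLANA was 4466 and 4155 against 5275 and 5464 in vehicle libraries, and TYRP1 64632 and 63691 against 52639 and 46045. DCT was 1984 and 1912 in trametinib libraries and 258 and 236 in combination libraries, against 14.4 and 4.75 in vehicle libraries. Endothelial markers summed to at most 4.08 in any library. Fibroblast markers (5 of 5 in the table) summed to 806 to 1095 in trametinib libraries, 1013 to 1016 in panobinostat libraries, 1282 to 1325 in combination libraries and 402 to 416 in vehicle libraries. Leukocyte markers (3 of 4 in the table) summed to 763 to 920, 1503 to 1571, 945 to 1048 and 672 to 696 in the same groups, and epithelial markers (3 of 4) to at most 80.6. Single markers differed. PTPRC and DCN were at most 11.7 and 7.02 in any library. Among fibroblast markers, COL1A1 was 511 and 821 in trametinib libraries against 133 and 149 in vehicle libraries. LUM went the other way, at 246 and 169 in trametinib libraries against 255 and 259 in vehicle libraries, and COL3A1 was at 0 in both groups. CD68 was 1417 and 1497 in panobinostat libraries against 650.0 and 610.4 in vehicle libraries. The sums moved with treatment, and their part in the results below was not tested.

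Most of the family was lower in treated cells, with TFDP2 as the exception. Under trametinib 8 of the 10 genes fell and 1 rose, where 27.4% of all tested genes fell and 23.7% rose (limma, Benjamini-Hochberg adjusted p under 0.05 over all tested genes). Under panobinostat 5 fell and 1 rose, where 15.6% of all tested genes fell and 15% rose. Under the combination 9 fell and 1 rose, where 25.5% of all tested genes fell and 24.5% rose. Libraries did not overlap with vehicle for 8 genes below it and 1 above it under trametinib (39.1% and 35.3% of all tested genes), for 8 below and 2 above under panobinostat (38.5% and 38.7%), and for 9 below and 1 above under the combination (40.6% and 43%). The median log2 change over the 10 genes was -2.42 under trametinib, -1.15 under panobinostat and -1.70 under the combination, compared with -0.07, 0.00 and 0.03 over all tested genes. The 3 comparisons share the vehicle libraries. In bulk RNA, fewer cells that express a gene and less of its RNA per cell cannot be told apart.

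**Figure D1:**
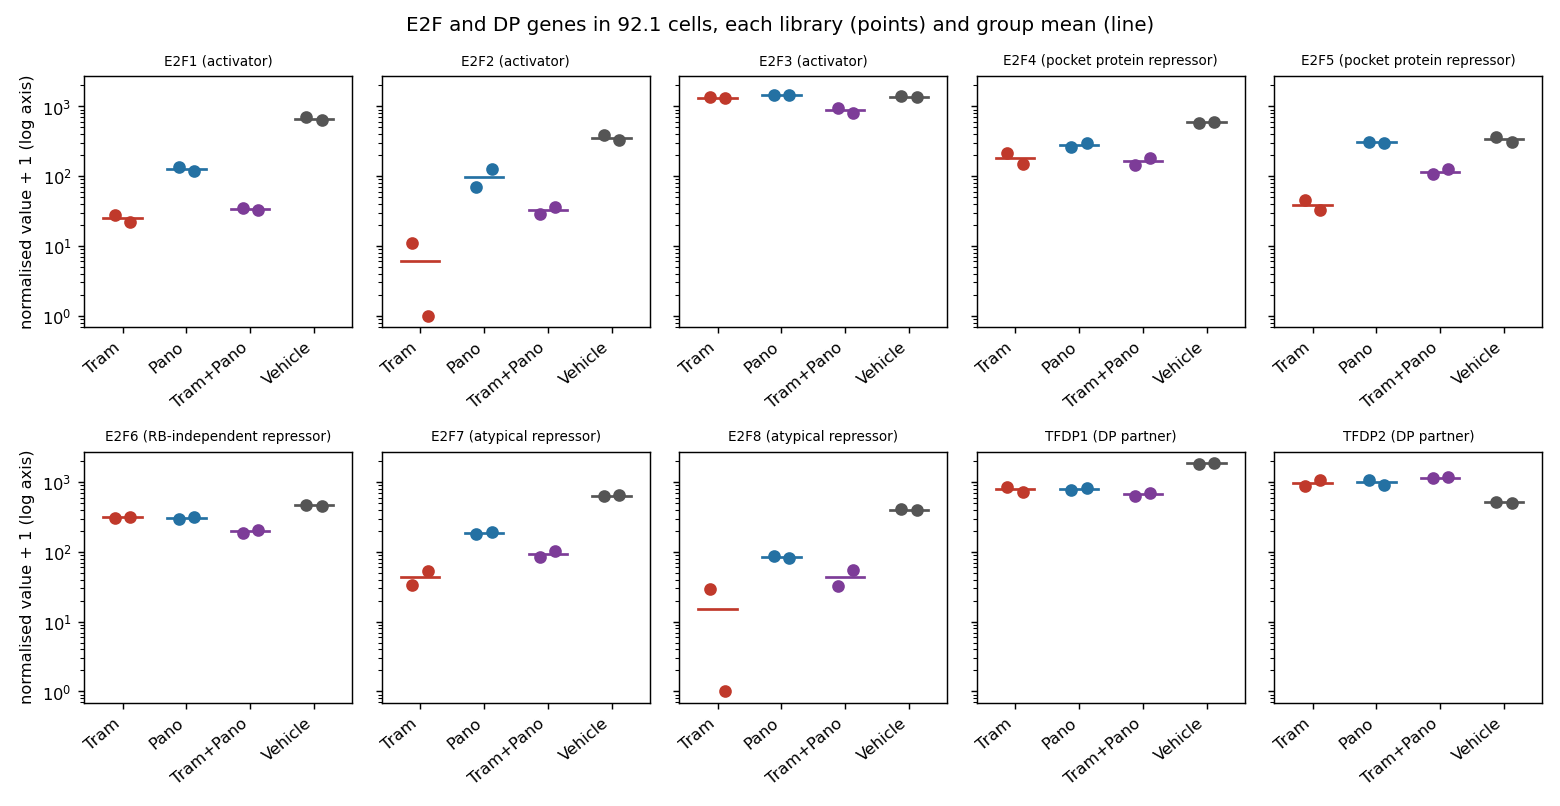
Normalised value plus 1 (log axis) of each E2F and DP gene in each library; points are libraries, lines are group means (n = 2), and Tram, Pano and Tram+Pano stand for trametinib, panobinostat and the combination. E2F1 lies at 21.1 to 136 in every treated library, against 637 and 698 in vehicle, whereas TFDP2 lies at 874 to 1165 in treated libraries, against 504 and 518 in vehicle.

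E2F1, E2F2 and E2F3 are the activators, which switch on S-phase genes once released from RB. Their promoters are shown because E2F proteins can bind at genes of the family itself and the activators moved differently. The sequences are the 130 bases upstream of each annotated transcription start, 5′ to 3′ on the gene's strand, from RefSeq on GRCh38.p14. Capitals mark matches to the E2F consensus, searched as TTTCCCGC, TTTCGCGC, TTTGGCGC and TTTGCCGC on both strands. E2F1 is at chr20:33686386-33686515 on the minus strand, E2F2 at chr1:23531234-23531363 on the minus strand and E2F3, at the first of its start sites, at chr6:20401749-20401878 on the plus strand.
E2F1: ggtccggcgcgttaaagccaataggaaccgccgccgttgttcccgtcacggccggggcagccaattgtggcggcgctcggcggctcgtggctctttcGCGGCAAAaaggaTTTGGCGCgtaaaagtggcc
E2F2: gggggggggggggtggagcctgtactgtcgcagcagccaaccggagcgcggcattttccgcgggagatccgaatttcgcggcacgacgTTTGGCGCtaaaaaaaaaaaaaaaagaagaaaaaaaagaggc
E2F3: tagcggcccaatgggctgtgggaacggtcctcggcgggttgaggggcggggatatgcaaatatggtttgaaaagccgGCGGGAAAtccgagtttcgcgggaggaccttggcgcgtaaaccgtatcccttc
The E2F1 stretch holds 2 matches, at -33 to -26 and -20 to -13 from the start, E2F2 holds 1 at -42 to -35 and E2F3 holds 1 at -53 to -46. A run of 8 letters, TTTCGCGG, occurs in all 3 activator stretches, beginning at -37 in E2F1, where it overlaps a consensus match, at -57 in E2F2 and at -39 in E2F3. That run was picked out after the sequences were seen, and 0.42% of 35116 RefSeq promoter windows of 300 bases hold it on either strand. Windows with an E2F consensus match make up 3.31% of the 35116, those with the cell cycle element TTTGAA 15.16% and those with a CCAAT box 34.61%.

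E2F1, the founding activator, was lower in every treated library than in either vehicle library. It had normalised values of 27.1 and 21.1 in the trametinib libraries, from 27 and 21 reads, 136 and 118 in the panobinostat libraries, 34.0 and 31.9 in the combination libraries, and 698 and 637 in the vehicle libraries. No group overlapped another, and the trametinib and combination libraries lay closest together. On the log2(value + 1) scale the added 1 shrinks the change of low genes. A library listed at 0 can instead enlarge that change against the ratio of group means. E2F1 fell, with log2 changes of -4.74 ± 0.28 under trametinib (SE, limma adjusted p = 1.17e-06), -2.39 ± 0.28 under panobinostat (adjusted p = 0.000322) and -4.30 ± 0.28 under the combination (adjusted p = 2.57e-06). As ratios of group means, E2F1 stood at 3.61%, 19.0% and 4.94% of its vehicle level. The combination differed from panobinostat by -1.91 ± 0.28 (adjusted p = 0.00115) and from trametinib by 0.45 ± 0.28, which did not pass (adjusted p = 0.255, 95% interval -0.19 to 1.08).

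E2F2, the second RB-bound activator, had values of 10.0 and 0 in the trametinib libraries, 68.3 and 125 in the panobinostat libraries, 28.1 and 34.99 in the combination libraries, and 383 and 333 in the vehicle libraries. All treated libraries lay below the vehicle libraries, in the order trametinib, combination, panobinostat, vehicle, without overlap. The first trametinib library rests on 10 reads and the second on none, where 3 reads would have been worth 3.01. E2F2 fell, with log2 changes of -6.75 ± 0.92 under trametinib (limma adjusted p = 0.000238) and -3.47 ± 0.92 under the combination (adjusted p = 0.0112). Without trametinib replicate 2 the trametinib change was -5.02 (adjusted p = 4.96e-10). The combination call was lost without either vehicle library or either combination library (adjusted p 0.0583 to 0.0788). Under panobinostat the change of -1.94 ± 0.92 did not pass (adjusted p = 0.146, 95% interval -4.01 to 0.13), although it passed in a fit on the panobinostat and vehicle libraries alone (adjusted p = 5.62e-06) and without either trametinib library (adjusted p = 0.000103 without replicate 1 and 2.42e-05 without replicate 2). The fit on all groups shares 1 estimate of the spread, and for E2F2 and E2F8 the trametinib pair was the widest.

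E2F3, the third activator, was not called under either single drug and was lower under the combination. Its values were 1368 and 1310 in the trametinib libraries, 1459 and 1439 in the panobinostat libraries, 965 and 817 in the combination libraries, and 1417 and 1346 in the vehicle libraries. Trametinib and vehicle libraries overlapped, panobinostat libraries lay just above them, and the combination libraries lay below all others. The log2 change was -0.04 ± 0.09 under trametinib (limma adjusted p = 0.713, 95% interval -0.26 to 0.17) and 0.07 ± 0.09 under panobinostat (adjusted p = 0.634, 95% interval -0.14 to 0.28). Under the combination E2F3 fell by 0.64 ± 0.09 (adjusted p = 0.000396), to 64.5% of the vehicle mean. Within each library E2F1 stood at 0.0198 and 0.0161 of E2F3 in trametinib, 0.0929 and 0.0820 in panobinostat, 0.0352 and 0.0391 in the combination, and 0.492 and 0.474 in vehicle. E2F3 makes more than 1 isoform from separate start sites, and gene-level values cannot tell them apart. The second start site has no E2F consensus match in its window.

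E2F4 and E2F5 are the repressors that work through the pocket proteins, E2F4 being the main E2F of resting cells. E2F4 had values of 218 and 149 in the trametinib libraries, 260 and 301 in the panobinostat libraries, 145 and 180 in the combination libraries, and 579 and 600 in the vehicle libraries. Every treated library was below both vehicle libraries, and the trametinib and combination libraries overlapped. E2F4 fell, with log2 changes of -1.71 ± 0.21 under trametinib (limma adjusted p = 0.000136), -1.07 ± 0.21 under panobinostat (adjusted p = 0.00489) and -1.86 ± 0.21 under the combination (adjusted p = 7.90e-05). The panobinostat call was lost without vehicle replicate 2 (adjusted p = 0.0524) or panobinostat replicate 1 (adjusted p = 0.0537). GENCODE lists a named pseudogene of E2F4, so how shared reads were assigned could touch this value.

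E2F5 was low under trametinib and close to its vehicle level under panobinostat. It had values of 44.1 and 32.1 in the trametinib libraries, 305 and 302 in the panobinostat libraries, 107 and 125 in the combination libraries, and 364 and 314 in the vehicle libraries. Trametinib libraries were lowest, combination libraries came next, and the panobinostat libraries lay just under the vehicle libraries. E2F5 fell, with log2 changes of -3.13 ± 0.24 under trametinib (limma adjusted p = 5.61e-06) and -1.54 ± 0.24 under the combination (adjusted p = 0.000561). Under panobinostat the change was -0.15 ± 0.24 (adjusted p = 0.686, 95% interval -0.69 to 0.39). The combination stood above trametinib by 1.59 ± 0.24 (adjusted p = 0.00103) and below panobinostat by a change of -1.39 ± 0.24 (adjusted p = 0.00274). The ratio of E2F5 to E2F4 within a library was 0.203 and 0.216 in trametinib, 1.17 and 1.00 in panobinostat, 0.734 and 0.695 in the combination, and 0.628 and 0.522 in vehicle. E2F5 shares exon sequence with C8orf59 and an antisense RNA on the opposite strand, and the use of strand in the counting is not stated.

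E2F6 represses independently of the pocket proteins, as part of the variant Polycomb complex PRC1.6. Its values were 301 and 320 in the trametinib libraries, 296 and 311 in the panobinostat libraries, 185 and 207 in the combination libraries, and 472 and 456 in the vehicle libraries. The single-drug libraries overlapped each other midway, with the combination below them and vehicle above. E2F6 fell, with log2 changes of -0.58 ± 0.14 under trametinib (limma adjusted p = 0.00837), -0.61 ± 0.14 under panobinostat (adjusted p = 0.0112) and -1.24 ± 0.14 under the combination (adjusted p = 8.82e-05). The trametinib call was lost without vehicle replicate 1 (adjusted p = 0.0784) or vehicle replicate 2 (adjusted p = 0.0584) and with sample quality weights (adjusted p = 0.0592), and the panobinostat call without any 1 of the vehicle or panobinostat libraries (adjusted p 0.0561 to 0.107). The combination stood below trametinib by a change of -0.66 ± 0.14 (adjusted p = 0.00717) and below panobinostat by -0.63 ± 0.14 (adjusted p = 0.0118). The call against trametinib was lost with sample quality weights (adjusted p = 0.0682). The call against panobinostat was lost without panobinostat replicate 1 (adjusted p = 0.0609), panobinostat replicate 2 (0.0859) or combination replicate 1 (0.0730). GENCODE names 4 E2F6 pseudogenes.

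E2F7 and E2F8, the atypical repressors, are E2F targets that shut the programme down again in late S phase. E2F7 had values of 33.1 and 52.2 in the trametinib libraries, 182 and 193 in the panobinostat libraries, 83.1 and 102 in the combination libraries, and 632 and 644 in the vehicle libraries. The groups did not overlap and kept the order trametinib, combination, panobinostat, vehicle. E2F7 fell, with log2 changes of -3.91 ± 0.26 under trametinib (limma adjusted p = 2.37e-06), -1.76 ± 0.26 under panobinostat (adjusted p = 0.00111) and -2.78 ± 0.26 under the combination (adjusted p = 2.30e-05). The combination stood 1.13 ± 0.26 above trametinib (adjusted p = 0.00987), a call lost without combination replicate 2 (0.98, adjusted p = 0.0765). The ratio of E2F7 to E2F1 within a library was 1.22 and 2.48 in trametinib, 1.35 and 1.63 in panobinostat, 2.45 and 3.19 in the combination, and 0.906 and 1.01 in vehicle, so E2F7 was lower by less than E2F1 in every treated library.

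E2F8 had values of 28.1 and 0 in the trametinib libraries, 85.6 and 80.7 in the panobinostat libraries, 31.6 and 54.8 in the combination libraries, and 408 and 396 in the vehicle libraries. All treated libraries were below vehicle, and the trametinib value of 28.1 lay just under the lower combination value of 31.6. E2F8 fell by 6.22 ± 1.20 under trametinib (limma adjusted p = 0.00194), and the change was -3.79 without trametinib replicate 2 (adjusted p = 4.90e-09). Under the combination E2F8 fell by 3.24 ± 1.20 (adjusted p = 0.0470), a call that held in 10 of 19 other settings and was lost without any 1 of the vehicle, panobinostat or combination libraries (adjusted p 0.0823 to 0.219), with DESeq2 (0.0544), with a pseudocount of 0.5 (0.0907) and with no filter on low values (0.0770). Under panobinostat the change of -2.26 ± 1.20 did not pass (adjusted p = 0.189, 95% interval -4.95 to 0.43), but it passed in a fit on the panobinostat and vehicle libraries alone (adjusted p = 2.03e-08) and without trametinib replicate 1 (9.47e-06) or replicate 2 (8.13e-07). An antisense RNA overlaps the exons of E2F8 on the opposite strand.

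TFDP1 and TFDP2 encode DP1 and DP2, the dimerisation partners without which E2F1 to E2F6 bind DNA poorly. Their promoters are shown because the partners moved in opposite directions. The stretches and capitals are as above, with TFDP1 at chr13:113584623-113584752 on the plus strand and TFDP2, at the first of its 3 start sites, at chr3:142149545-142149674 on the minus strand.
TFDP1: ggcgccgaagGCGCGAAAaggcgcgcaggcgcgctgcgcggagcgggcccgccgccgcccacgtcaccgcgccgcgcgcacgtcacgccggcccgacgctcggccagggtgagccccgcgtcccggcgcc
TFDP2: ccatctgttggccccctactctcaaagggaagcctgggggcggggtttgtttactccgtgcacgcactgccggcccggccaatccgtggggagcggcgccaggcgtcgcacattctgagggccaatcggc
TFDP1 holds 1 consensus match, at -120 to -113, and none of the 3 TFDP2 windows holds one. E2F4, E2F6 and E2F7 have none in their 300-base windows either. In all, 4 of the 8 members with a RefSeq promoter had a match, as did 15 of 28 G1/S target genes with a promoter (53.57%) and 3.99% of the 27305 genes with one. A match describes the letters only, and binding was not measured.

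TFDP1 had values of 854 and 715 in the trametinib libraries, 769 and 820 in the panobinostat libraries, 639 and 709 in the combination libraries, and 1843 and 1883 in the vehicle libraries. All 6 treated libraries lay far below vehicle and close to one another. TFDP1 fell, with log2 changes of -1.25 ± 0.11 under trametinib (limma adjusted p = 1.19e-05), -1.23 ± 0.11 under panobinostat (adjusted p = 5.90e-05) and -1.47 ± 0.11 under the combination (adjusted p = 4.91e-06). The combination differed by -0.22 ± 0.11 from trametinib (adjusted p = 0.155, 95% interval -0.46 to 0.03) and by -0.24 ± 0.11 from panobinostat (adjusted p = 0.152, 95% interval -0.48 to 0.01). These became calls without trametinib replicate 2, at -0.34 (adjusted p = 0.0103) against trametinib and -0.24 (adjusted p = 0.0267) against panobinostat, the second also without trametinib replicate 1 (adjusted p = 0.0284).

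TFDP2 was the 1 member that rose. It had values of 874 and 1081 in the trametinib libraries, 1079 and 913 in the panobinostat libraries, 1140 and 1165 in the combination libraries, and 518 and 504 in the vehicle libraries. The combination libraries were the highest and no treated library overlapped vehicle. TFDP2 rose by 0.93 ± 0.12 under trametinib (limma adjusted p = 0.000206), by 0.96 ± 0.12 under panobinostat (adjusted p = 0.000511) and by 1.17 ± 0.12 under the combination (adjusted p = 4.55e-05). The ratio of TFDP2 to TFDP1 within a library was 1.02 and 1.51 in trametinib, 1.40 and 1.11 in panobinostat, 1.78 and 1.64 in the combination, and 0.281 and 0.268 in vehicle. Against trametinib the combination differed by 0.25 ± 0.12 (adjusted p = 0.155), which passed without trametinib replicate 2 (0.40, adjusted p = 0.00708).

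**Figure D2:**
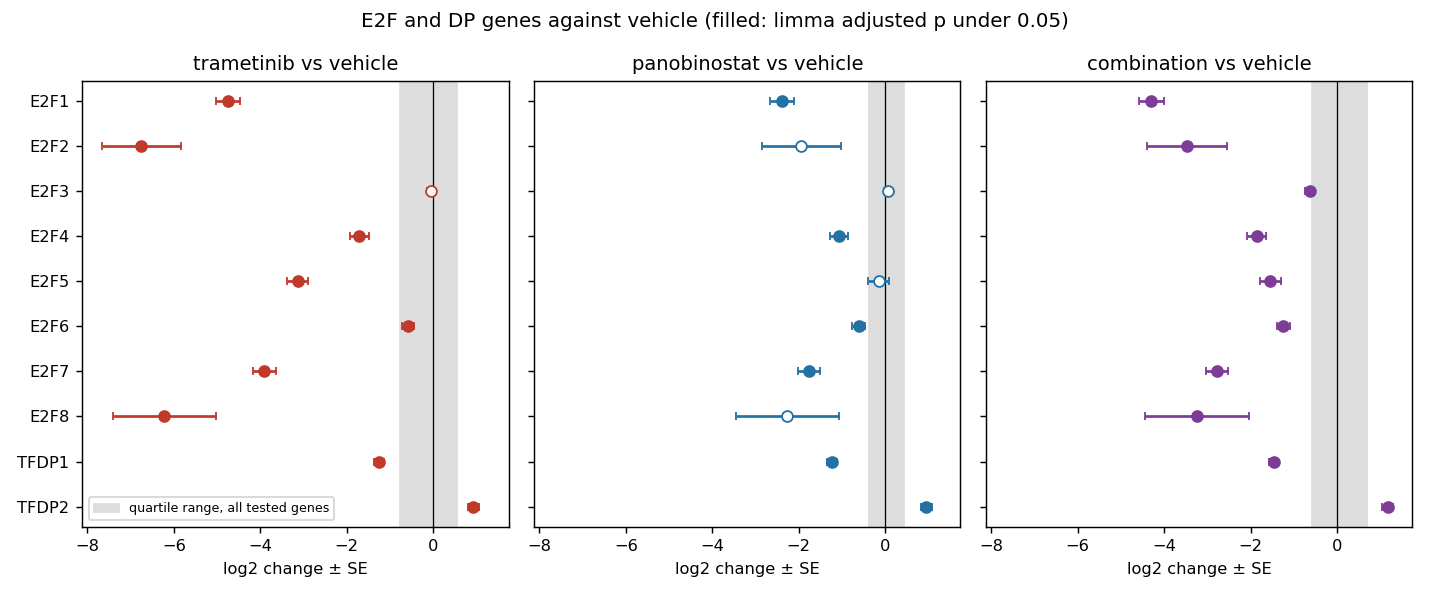
Log2 change ± SE of each gene against vehicle under trametinib, panobinostat and the combination (limma, 2 libraries a group); filled points passed at an adjusted p under 0.05, and the grey band is the range between the quartiles of all tested genes. E2F3 sits near 0 under each single drug and at -0.64 under the combination, and TFDP2 is to the right of 0 in all 3 panels.

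Taken gene by gene, 5 members (E2F1, E2F4, E2F6, E2F7 and TFDP1) fell under all 3 treatments, as did 10.4% of all tested genes, and TFDP2 rose under all 3, as did 8.55%. E2F2, E2F5 and E2F8 fell under trametinib and the combination and were not called under panobinostat. For E2F2 and E2F8 the panobinostat result and the combination call changed with the libraries fitted, as given above. Of the combination against trametinib, 3 members were higher (E2F2, E2F5 and E2F7) and 2 lower (E2F3 and E2F6), where 17.6% of all tested genes were higher and 15.2% lower. The E2F2 difference there was 3.28 ± 0.92 (limma adjusted p = 0.0228), 1.55 without trametinib replicate 2 (adjusted p = 0.00206), and it was not a call without combination replicate 1 (adjusted p = 0.103) or replicate 2 (adjusted p = 0.136). The E2F3 difference was -0.59 ± 0.09 (adjusted p = 0.00133). With the combination and trametinib libraries alone in the fit, E2F3 was the 1 member of these 5 that passed.

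Against panobinostat, 6 members were lower in the combination (E2F1, E2F3, E2F4, E2F5, E2F6 and E2F7) and none higher, where 13.1% of all tested genes were lower and 10.9% higher. The E2F3 difference was -0.71 ± 0.09 (limma adjusted p = 0.000601). The E2F4 difference of -0.79 ± 0.21 (adjusted p = 0.0244) was lost without any 1 of the vehicle, panobinostat or combination libraries (adjusted p 0.0582 to 0.166). The E2F7 difference of -1.02 ± 0.26 (adjusted p = 0.0201) was likewise lost without any 1 of those libraries (adjusted p 0.0587 to 0.125). E2F2 and E2F8, at -1.53 ± 0.92 and -0.98 ± 1.20, did not pass (adjusted p = 0.279 and 0.624). Without trametinib replicate 2 both passed (adjusted p = 0.000358 for E2F2 and 0.00538 for E2F8), and without trametinib replicate 1 as well (0.00114 and 0.0172).

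The effect of panobinostat differed with and without trametinib for 7 of the 10 members. This interaction is the log2 difference of the combination from trametinib minus that of panobinostat from vehicle, and 19.3% of all tested genes passed its test. It was positive for E2F1, E2F2, E2F5, E2F7 and TFDP1 (10.2% of all tested genes) and negative for E2F3 and TFDP2 (9.04%). In the trametinib libraries E2F1 rested on 27 and 21 reads and E2F2 on 10 and 0. Such low counts leave limited room for a further fall, and their part in these interactions was not tested. E2F7 was 1.13 higher with panobinostat added to trametinib and 1.76 lower with panobinostat alone, an interaction of 2.89 ± 0.37 (limma adjusted p = 0.000753). For E2F1 the interaction was 2.84 ± 0.40 (adjusted p = 0.00127) and for E2F2 5.22 ± 1.30 (adjusted p = 0.0216), which was 3.49 without trametinib replicate 2 (adjusted p = 1.04e-05) and was lost without any 1 of the vehicle, panobinostat or combination libraries (adjusted p 0.0639 to 0.105). E2F5 had 1.74 ± 0.34 (adjusted p = 0.00694), lost without vehicle replicate 1 (1.63, adjusted p = 0.0610), and TFDP1 had 1.01 ± 0.15 (adjusted p = 0.00174).

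The negative interactions belonged to E2F3, at -0.66 ± 0.13 (limma adjusted p = 0.00793), and TFDP2, at -0.71 ± 0.17 (adjusted p = 0.0203). The E2F3 value corresponds to a gene near its vehicle level under either drug and lower under both. The TFDP2 call was lost without either vehicle library, panobinostat replicate 1 or either combination library (adjusted p 0.0695 to 0.0995). E2F4 (0.92 ± 0.30, adjusted p = 0.0629), E2F6 (-0.05 ± 0.20, adjusted p = 0.882) and E2F8 (5.24 ± 1.69, adjusted p = 0.0585) did not pass. Without trametinib replicate 2, E2F4 (0.64, adjusted p = 0.0356) and E2F8 (2.81, adjusted p = 2.96e-05) did, and without trametinib replicate 1 they did too (1.19, adjusted p = 0.000440, and 7.67, adjusted p = 9.10e-10). For E2F6 the 95% interval was -0.51 to 0.41.

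**Figure D3:**
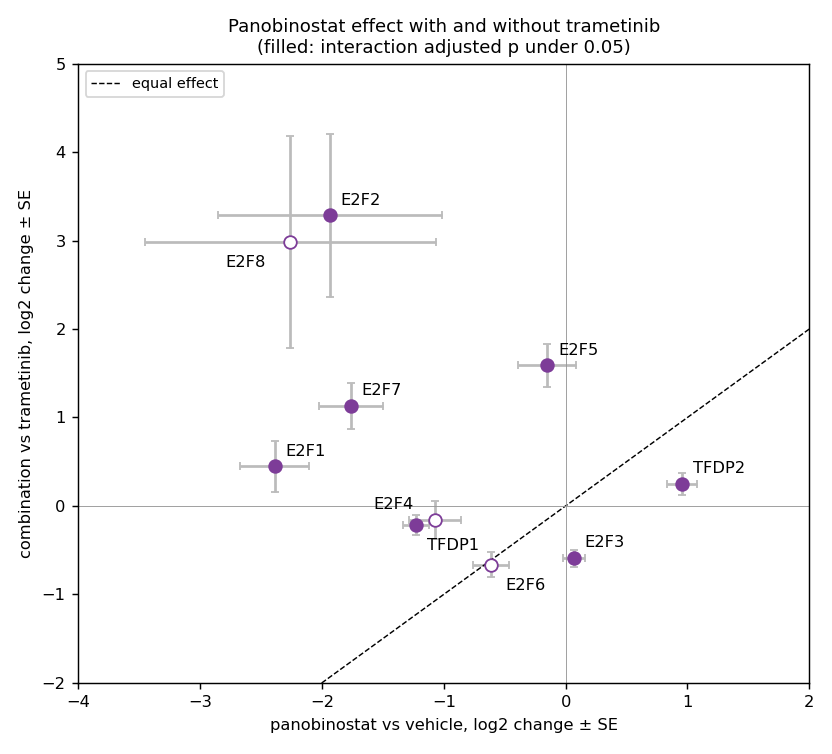
Log2 change ± SE made by panobinostat in the presence of trametinib (vertical axis, combination against trametinib) and in its absence (horizontal axis, panobinostat against vehicle) for each gene; filled points passed the interaction test and the dashed line marks equal effects. E2F6 lies on the line (interaction -0.05), E2F1, E2F2, E2F5, E2F7, E2F8, E2F4 and TFDP1 lie above it, and E2F3 and TFDP2 lie below it.

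Levels of different genes were compared per kilobase of the longest coding transcript in GENCODE, which is approximate because that annotation is of another build than the counts. In vehicle cells TFDP1 was highest at 704 ± 10.7 normalised units per kb (SD, n = 2), followed by E2F3 at 291 ± 10.6, E2F4 at 281 ± 7.13 and E2F1 at 267 ± 17.0, whose ranges touch. E2F5 (179 ± 18.7), E2F6 (134 ± 3.24), E2F8 (114 ± 2.45), E2F7 (111 ± 1.54), E2F2 (68.9 ± 6.85) and TFDP2 (51.9 ± 0.996) followed, with E2F8 and E2F7 apart by no more than their spread. In combination cells TFDP1 (255 ± 18.6 per kb) and E2F3 (188 ± 21.997) kept the first places, and TFDP2, last per kb in vehicle cells, came next at 117 ± 1.80. The places of TFDP2 rest on dividing by a transcript of 9857 bases, and gene-level values do not tell which isoform was expressed. Before that division its vehicle mean of 511 was above those of E2F6 (464), E2F8 (402), E2F2 (358) and E2F5 (339). E2F1 stood at 13.2 ± 0.566 per kb in the combination, near E2F7 (16.1 ± 2.32) and E2F8 (12.3 ± 4.65). In trametinib cells TFDP1 (296 ± 37.2 per kb) and E2F3 (282 ± 8.62) did not differ beyond their spread, and E2F2 was lowest at 0.966 ± 1.37.

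The other genes of the pathway were read from lists of known partners, regulators and targets. Their counts stand against 23.7% of all tested genes higher and 27.4% lower under trametinib, 15% higher and 15.6% lower under panobinostat, and 24.5% higher and 25.5% lower under the combination. Of the pocket protein genes, RBL1, which encodes p107 and is itself an E2F target, fell, with log2 changes of -1.73 ± 0.17 under trametinib, -1.04 ± 0.17 under panobinostat and -1.34 ± 0.17 under the combination (limma adjusted p = 2.38e-05, 0.00152 and 0.000131). RBL2, which encodes p130, the pocket protein of resting cells, rose by 1.06 ± 0.12 under trametinib (adjusted p = 7.39e-05) and by 0.61 ± 0.12 under the combination (adjusted p = 0.00224). RB1 had values of 855 and 1120 in trametinib libraries, 1146 and 1212 in panobinostat libraries, 1823 and 1862 in combination libraries, and 1219 and 1150 in vehicle libraries. Under trametinib the RB1 change of -0.27 ± 0.12 did not pass (limma adjusted p = 0.0806), and it was -0.47 without trametinib replicate 2. RB1 rose by 0.64 ± 0.12 under the combination (adjusted p = 0.00159), and the interaction of 0.92 ± 0.17 passed as well (adjusted p = 0.00490). That interaction was 1.11 without trametinib replicate 2.

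Among the D-type cyclin and CDK genes whose products phosphorylate RB in G1, 5 of 6 were tested. Of these, 3, 2 and all 5 fell under trametinib, panobinostat and the combination, while 1 rose under each single drug. CCND1, which encodes cyclin D1, had values of 785 and 632 in trametinib libraries, 11074 and 10677 in panobinostat libraries, 1191 and 1114 in combination libraries, and 7030 and 7330 in vehicle libraries. It fell by 3.35 ± 0.10 under trametinib (limma adjusted p = 2.20e-08), rose by 0.60 ± 0.10 under panobinostat (adjusted p = 0.00164) and fell by 2.64 ± 0.10 under the combination (adjusted p = 1.10e-07). CDK2, the partner kinase of cyclins E and A, rose by 1.06 ± 0.08 under trametinib (adjusted p = 3.62e-06) and fell by 0.31 ± 0.08 under the combination (adjusted p = 0.00683). Its interaction was -1.24 ± 0.11 (adjusted p = 9.60e-05). CDK4 fell by 0.93 ± 0.10 under panobinostat (adjusted p = 0.000160) and by 1.03 ± 0.10 under the combination (adjusted p = 2.19e-05). CDK6 fell by 1.88 ± 0.23 under trametinib (adjusted p = 0.000118) and by 1.01 ± 0.23 under the combination (adjusted p = 0.00500). CCND3, encoding cyclin D3, fell under all 3 treatments, with log2 changes of -1.43 ± 0.13, -0.56 ± 0.13 and -1.14 ± 0.13 (adjusted p = 1.67e-05, 0.00996 and 7.62e-05).

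The G1/S target genes, which E2F proteins drive at the start of S phase, were lower throughout. All 33 fell under trametinib (median log2 change -2.89), 30 of 33 under panobinostat (median -1.83) and all 33 under the combination (median -2.84), and none rose. MCM3, a subunit of the replicative helicase, fell, with log2 changes of -2.85 ± 0.10, -1.45 ± 0.10 and -3.15 ± 0.10 under trametinib, panobinostat and the combination (limma adjusted p = 4.26e-08, 1.62e-05 and 4.98e-08). Set against trametinib, the combination left 24 of the 33 without a call, 6 higher and 3 lower, with a median of 0.22. Of all tested genes 17.6% were higher and 15.2% lower there, with a median of 0.06. The 6 higher genes are thus a share close to that of all tested genes, and the 3 lower a share under it. The median of the 33 was -0.04 without trametinib replicate 2. PCNA, the sliding clamp of DNA polymerase, was 0.80 ± 0.14 higher (adjusted p = 0.00257) and MYBL2, a transcription factor of late cell cycle genes, 0.54 ± 0.08 higher (adjusted p = 0.00119). The interaction was positive for 24 of 33 and negative for none (median 1.76, against 0.08 over all tested genes), the same sign as for E2F1 and E2F7.

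The MuvB core, which joins E2F4, a DP protein and p107 or p130 in the DREAM repressor complex, and its kinase DYRK1A had 3 of 6 genes lower and 1 higher under trametinib, 3 lower under panobinostat, and 3 lower and 1 higher under the combination. The single higher gene of 6 is a share under that of all tested genes (23.7% and 24.5%). LIN9 fell, with log2 changes of -2.33 ± 0.30, -1.29 ± 0.30 and -2.28 ± 0.30 under trametinib, panobinostat and the combination (limma adjusted p = 0.000147, 0.00952 and 0.000171). LIN54, the DNA-binding subunit, fell, with log2 changes of -0.58 ± 0.17, -1.06 ± 0.17 and -1.17 ± 0.17 (adjusted p = 0.0155, 0.00142 and 0.000306). The PRC1.6 partners of E2F6 were mixed: of 9 genes, 3 rose and 2 fell under trametinib, 1 rose and 3 fell under panobinostat, and 1 rose and 5 fell under the combination. The 2 of 9 that fell under trametinib are a share under the 27.4% of all tested genes, and the 1 of 9 that rose under panobinostat a share under the 15%. L3MBTL2, a core subunit, fell by 0.97 ± 0.18 under panobinostat (adjusted p = 0.00337) and 1.11 ± 0.18 under the combination (adjusted p = 0.000662), and MGA, its DNA-binding scaffold, fell by 0.50 ± 0.12 under panobinostat (adjusted p = 0.0116) and fell by 0.80 ± 0.12 under the combination (adjusted p = 0.000406).

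Germline genes that E2F6 keeps silent, a role known from mouse, numbered 7 in the list, of which 3 passed the filter. TDRKH, a piRNA pathway factor, had values of 64.2 and 26.1 in trametinib libraries, 166 and 143 in panobinostat libraries, 200 and 146 in combination libraries, and 77.6 and 54.6 in vehicle libraries. It rose by 1.38 ± 0.43 under the combination (limma adjusted p = 0.0230), whereas SMC1B, a meiotic cohesin subunit, fell by 3.93 ± 1.00 under trametinib (adjusted p = 0.00905), or a change of -2.43 without trametinib replicate 2, where it was listed at 0 (adjusted p = 0.00171). Of 9 apoptosis genes known as E2F1 targets, 2 rose and 4 fell under trametinib, 1 rose and 1 fell under panobinostat, and 3 rose and 2 fell under the combination. The shares that rose under trametinib and that rose or fell under panobinostat are close to or under those of all tested genes (23.7%, 15% and 15.6%), and without trametinib replicate 2 the genes that fell under trametinib numbered 3. BCL2L11, which encodes the killer protein BIM, rose by 1.18 ± 0.27 under trametinib (adjusted p = 0.00519), by 0.99 ± 0.27 under panobinostat (adjusted p = 0.0212) and by 2.21 ± 0.27 under the combination (adjusted p = 0.000117). TP73, encoding p73, had values of 1.00 and 0 in trametinib libraries, 17.3 and 36.3 in panobinostat libraries, 3.51 and 3.04 in combination libraries, and 110 and 87.1 in vehicle libraries. It fell by 6.13 ± 0.86 under trametinib (limma adjusted p = 0.000282), where a library was listed at 0, and fell by 4.53 ± 0.86 under the combination (adjusted p = 0.00177). The TP73 change was -5.63 without trametinib replicate 2. Trametinib replicate 1 held 1 read of TP73 and the combination libraries 3 and 2, so the sizes of both falls rest on values at the floor.

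The ubiquitin ligase parts that act on E2F proteins had 3 of 4 genes lower under trametinib, 3 under panobinostat and all 4 under the combination, with none higher. CCNF, encoding cyclin F, which marks activator E2Fs for destruction, fell, with log2 changes of -1.93 ± 0.22, -1.23 ± 0.22 and -2.26 ± 0.22 under trametinib, panobinostat and the combination (limma adjusted p = 8.46e-05, 0.00311 and 3.18e-05). CDC20, an activator of the anaphase-promoting complex, fell by 3.31 ± 0.22 under trametinib (adjusted p = 2.47e-06), fell by 1.33 ± 0.22 under panobinostat (adjusted p = 0.00208) and fell by 1.74 ± 0.22 under the combination (adjusted p = 0.000166). It stood 1.57 ± 0.22 higher in the combination than under trametinib (adjusted p = 0.000726).

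**Figure D4:**
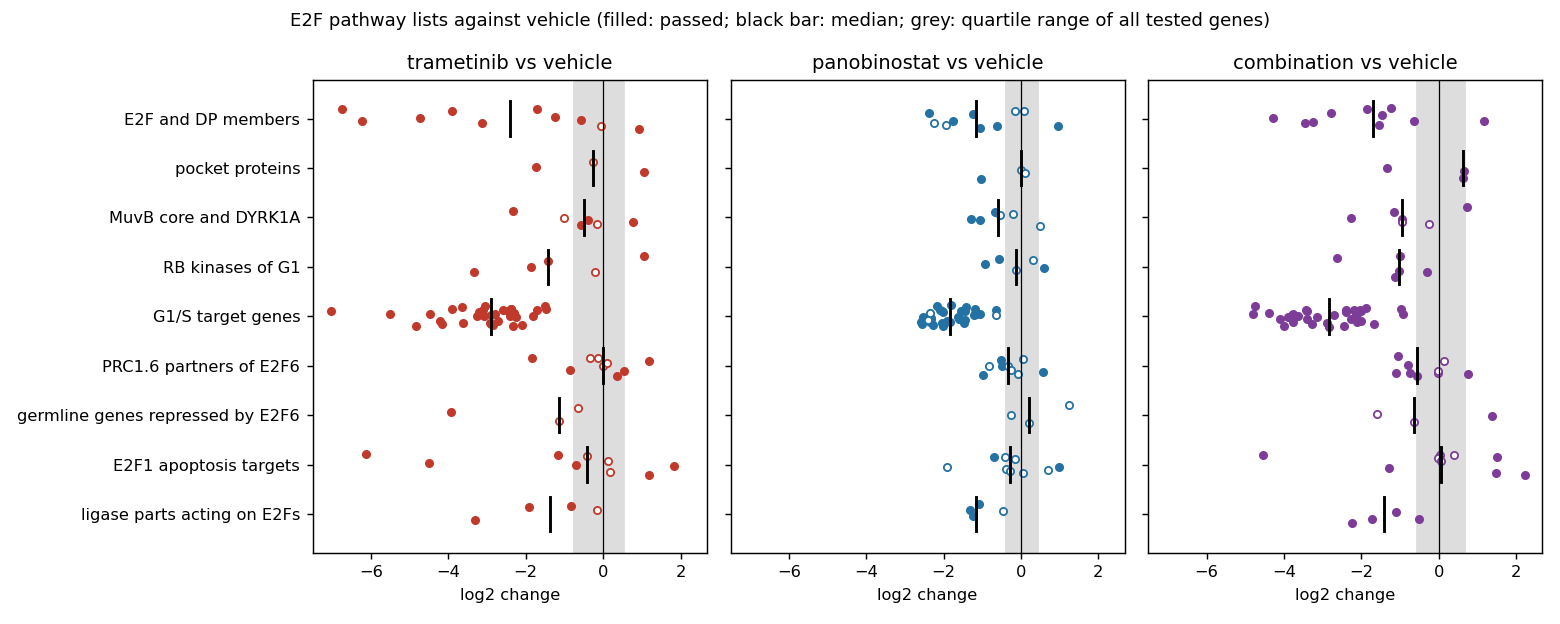
Log2 change of each gene against vehicle for the E2F and DP genes and 8 lists of pathway genes, under trametinib, panobinostat and the combination; filled points passed at an adjusted p under 0.05, black bars are list medians and the grey band is the range between the quartiles of all tested genes. All G1/S target genes lie left of 0 in every panel, with medians of -2.89, -1.83 and -2.84, while the pocket protein genes lie on both sides of 0.

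Profiles over the 8 libraries were compared by the root mean square difference between log2(value + 1) profiles, each centred on its own mean. Among the members the closest pairs were E2F4 with TFDP1 (0.27), E2F3 with E2F6 (0.29), E2F6 with TFDP1 (0.29), E2F4 with E2F6 (0.44) and E2F3 with TFDP1 (0.53). E2F2 and E2F8 followed at 0.54, both listed at 0 in trametinib replicate 2, and the member nearest to E2F1 was E2F7 (0.61). The measure grows with how much a profile varies, so it does not rank flat pairs against variable ones. The root mean square spread of a profile about its own mean was 0.29 for E2F3, 0.44 for E2F6, 0.58 for TFDP1 and 0.75 for E2F4. It was 1.45 for E2F7 and 1.88 for E2F1. E2F3 thus lay about as far from E2F6 as from a flat profile. Of all tested genes, the nearest to E2F1 was MCM10, a replication factor (0.19), the nearest to E2F7 was KIF14, a mitotic kinesin (0.19), and the nearest to E2F8 was CLSPN, which encodes the checkpoint adaptor claspin (0.45). E2F5 lay nearest to STC2 (0.21), TFDP1 to XPO1, the nuclear export receptor (0.11), and TFDP2 to YIPF3 (0.08). E2F3, whose profile varied little, lay nearest to NDUFB10 (0.07), a subunit of respiratory complex I. These values describe likeness over 8 libraries that share treatments and depth, and no test was made of them.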

How the data were processed

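RNA-seq of 92.1 cells was analysed in 8 libraries, 2 for each of 4 groups. The authors deposited normalised values (signal) per gene; TopHat2 2.0.13, Cufflinks 2.2.1 and DESeq2 (no version) are named in the submitters' processing notes. What each tool did, the annotation and the strand setting are not stated there. The build hs37d5 is named for 4 libraries. In every library all values were whole multiples of the worth of 1 read (100% at a tolerance of 1e-06), so reads could be recovered. Depth was 6897784 to 16861001 reads a library; a floor of 3 reads covers counting error only. No column was left unmapped (0).

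The tests used limma 3.58.1 (R 4.3.3) with an intensity trend on log2(value + 1), genes with a mean of at least 10, all 8 libraries and Benjamini-Hochberg adjustment over 13320 genes, with a threshold of 0.05. With 2 libraries a group, the smallest exact permutation p is 0.333. Alternatives were edgeR 4.0.16 and DESeq2 1.42.0 on the recovered reads, pseudocounts of 0.5 and 5, no filter or a mean of at least 50, TMM and total scaling, sample weights, only the groups compared, a replicate block and each library left out; the script was tested on simulated data. All 10 members are named. In each pathway list up to 3 genes with the smallest adjusted p among those that passed are named per comparison, and 3 neighbours by profile were found for each member. Members, lists and rules were chosen with earlier results of these data known, and the G1/S list overlaps lists used on these data before. List genes that were not in the table were not analysed here. Promoters come from RefSeq on GRCh38.p14. They were matched by symbol for 8 of 10 members; E2F5 and E2F8 had no entry. Python 3.11.15 and matplotlib 3.10.9 drew the figures.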

Additional observations from a re-analysis of the deposited data

Results flagged for a closer look

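The panobinostat effect with trametinib present differed from that without it, by limma's test of the interaction, for E2F1 (2.84), E2F2 (5.22), E2F5 (1.74), E2F7 (2.89) and TFDP1 (1.01), which were less reduced or higher when panobinostat was added to trametinib. It differed with the opposite sign for E2F3 (-0.66) and TFDP2 (-0.71). The values are log2 differences, with adjusted p-values of 0.000753 to 0.0216 by limma and Benjamini-Hochberg. The E2F2 value rests on a trametinib library listed at 0 and was 3.49 without trametinib replicate 2. The E2F2, E2F5 and TFDP2 calls were each lost when certain single libraries were left out, as given above.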

How the results depend on the processing

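Of 60 member results, 43 passed, and 28 of these passed under every alternative. TMM and total-count scaling changed none. With only the groups compared in the fit, which has fewer libraries, 1 member passed for the combination against trametinib, against 5 with all groups. The same restriction gave 8 members under panobinostat and 8 for the combination against panobinostat, against 6 and 6 with all groups. The number was unchanged under trametinib (9) and under the combination (10), and the cause of these shifts was not tested. Leaving out each library in turn, with the lone sample assumed to vary like the other groups, 8 to 9 members passed under trametinib, 4 to 8 under panobinostat, 8 to 10 under the combination, 3 to 7 for the combination against trametinib, 3 to 9 against panobinostat and 4 to 9 for the interaction. E2F4 in the combination against trametinib ranged over these from -0.43 without trametinib replicate 2 to 0.12 without trametinib replicate 1, against -0.16 with all libraries, and the E2F6 interaction from -0.13 without combination replicate 2 to 0.029 without combination replicate 1, against -0.05; neither passed, and the cause was not tested.

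Same-numbered libraries did not deviate together (r between -0.02 and 0.02 over 13320 genes). With a replicate block the members passed were unchanged in number: 9 under trametinib, 6 under panobinostat, 10 under the combination, 5 and 6 for the combination against trametinib and panobinostat, and 7 for the interaction, and no member's call changed.

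Counts over all genes moved as well. With only the groups compared, 7335 genes were called under panobinostat against 4069 with all groups, 2256 against 4363 for the combination against trametinib, and 5343 against 3191 for the combination against panobinostat. With sample weights these were 7292, 2801 and 5072. Without each library in turn the lowest and highest counts were 4659 and 8946 under trametinib (6797 with all libraries), 1971 and 6804 under panobinostat, 4700 and 8945 under the combination (6662), 2490 and 7383 against trametinib, 1686 and 5747 against panobinostat and 1308 and 6215 for the interaction (2565). Under trametinib E2F2 rests on 10 and 0 reads and E2F8 on 28 and 0, although trametinib replicate 2 (10528784 reads) was deeper than combination replicate 2 (6897784 reads); the cause of the zeros was not tested.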
